A study of Mus musculus with 56 samples.

Results

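The subject is the RNA that was left in solution when astrocyte ribosomes were pulled out of mouse barrel cortex, compared between whisker-deprived and control tissue at postnatal day 5 (P5). All 10 unbound libraries of the astrocyte line were taken by their titles, out of 56 libraries in the series, and they form 5 deprived and 5 control libraries. Both groups carry the genotype Aldh1l1::eGFPL10a, in which the astrocyte gene Aldh1l1 drives a ribosomal protein (L10a) fused to EGFP, and neither was given tamoxifen. Whiskers on the right side were cauterised at P4 per the labels of both groups, and tissue was taken 24 h later. The titles tell deprived from control pieces without naming an animal or a hemisphere, so the brain side and the loss of whisker input cannot be told apart, and p-values measure only the spread between these libraries. The astrocytes were tagged, so the unbound RNA holds what the pulldown did not take, and per the labels it stands for whole tissue. Each group has 3 female and 2 male libraries. For comparison there are the 10 bound libraries of the same line, and 10 unbound libraries of a knockout line, Cx3cr1CreErt2/CreErt2(Litt) Eef1a1LSL.eGFPL10a/+, which had tamoxifen on days 1 to 3, the same lesion, and 5 mice that each gave a deprived and a control piece.

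Each large whisker of a rodent has its own cluster of neurons in layer 4 of the primary somatosensory cortex, a barrel, and thalamic axons carry the whisker signal into it. Around the first postnatal week this map is still being refined by activity. Neurons respond to changes in input with immediate early genes such as Fos, Arc and Npas4, whose transcripts appear within minutes to hours. In mouse barrel cortex, loss of whisker input is known to be followed by removal of thalamocortical synapses by microglia, through the neuronal chemokine fractalkine (Cx3cl1), its microglial receptor (Cx3cr1) and the protease Adam10. Astrocytes take part in synapse formation and are a source of Wnt ligands, secreted proteins that act through Frizzled receptors.

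The unbound RNA held the transcripts of all cell types looked at, neurons above all. Summed over the pan-neuronal markers, the level was 1382 to 1469.5 CPM per kb (CPM, counts scaled to the size of the library; per kb, divided by exon length in kilobases) in deprived and 1328 to 1440.4 in control libraries. Astrocyte markers summed to 389.7 to 445 CPM per kb in deprived and 406 to 443 in control libraries, and microglial markers to 37.0 to 51.2 and 41.0 to 47.7. The pulldown was enriched in astrocyte RNA: 22 of 23 astrocyte markers averaged higher in the bound than in the unbound library of the same piece. Their median difference was 1.07 on the log2 scale. Of 13 pan-neuronal markers 4 were higher in bound RNA, with a median of -0.21, and of 18 endothelial markers 13, with a median of 0.21. How much astrocyte RNA the pulldown removed from the unbound RNA was not tested. The bound minus unbound difference was 1.92 ± 0.15 log2 units for Aldh1l1 itself and -1.11 ± 0.11 for the neuronal synaptic gene Snap25 (SD, n = 10 pieces). In tissue of this kind, fewer cells of a type and less RNA per cell cannot be told apart.

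Library totals ran from 10955356 to 23686500 counts in deprived and from 10081228 to 24306936 counts in control libraries. In 0 of 10 libraries did Xist and Y-linked genes go against the labelled sex. The first principal component of the 500 most variable genes took up 34.9% of their variance, and its scores did not separate the groups (exact permutation test, two-sided, p = 0.508 with 252 splits, n = 5 each). It was led at one end by choroid plexus genes. Ttr, which encodes the transport protein transthyretin and is made in the choroid plexus, had 689, 694, 16.3, 844 and 935 CPM in deprived libraries 1 to 5 and 907, 1042, 855, 11.3 and 483 CPM in control libraries 1 to 5. Deprived library 3 and control library 4 were thus low and the other 8 high, so the difference does not follow the groups. The bound RNA of the same pieces had 565, 631, 13.8, 692 and 685 CPM (deprived) and 637, 925, 832, 7.22 and 490.2 CPM (control), with the same 2 pieces low.

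Other pieces stood apart in genes of deeper or neighbouring structures. Tcf7l2, a transcription factor of the Wnt pathway that is abundant in thalamic neurons, had 18.2, 17.5, 14.4, 18.7 and 19.2 CPM in deprived and 15.7, 20.5, 144, 14.3 and 19.0 CPM in control libraries, where control library 3 alone was high. Its log2 fold change (deprived over control) of -1.26 ± 0.51 (SE) became 0.02 without that library. The bound library of control piece 3 was high as well, at 158.9 CPM against 27.7 to 40.8 CPM in the other 9 bound libraries. Control library 4 was low in Crym, a thyroid hormone-binding protein used here as a deep-layer marker, with 60.3, 62.8, 58.4, 17.3 and 47.1 CPM over control libraries 1 to 5, against 73.4, 78.0, 70.8, 82.7 and 65.6 CPM in deprived libraries. Control library 4 also had the lowest median correlation with the other libraries, 0.985 against 0.989 to 0.992. Which tissue each piece held was not tested beyond these values, and values without single libraries are given where they bear on a result.

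**Figure D1:**
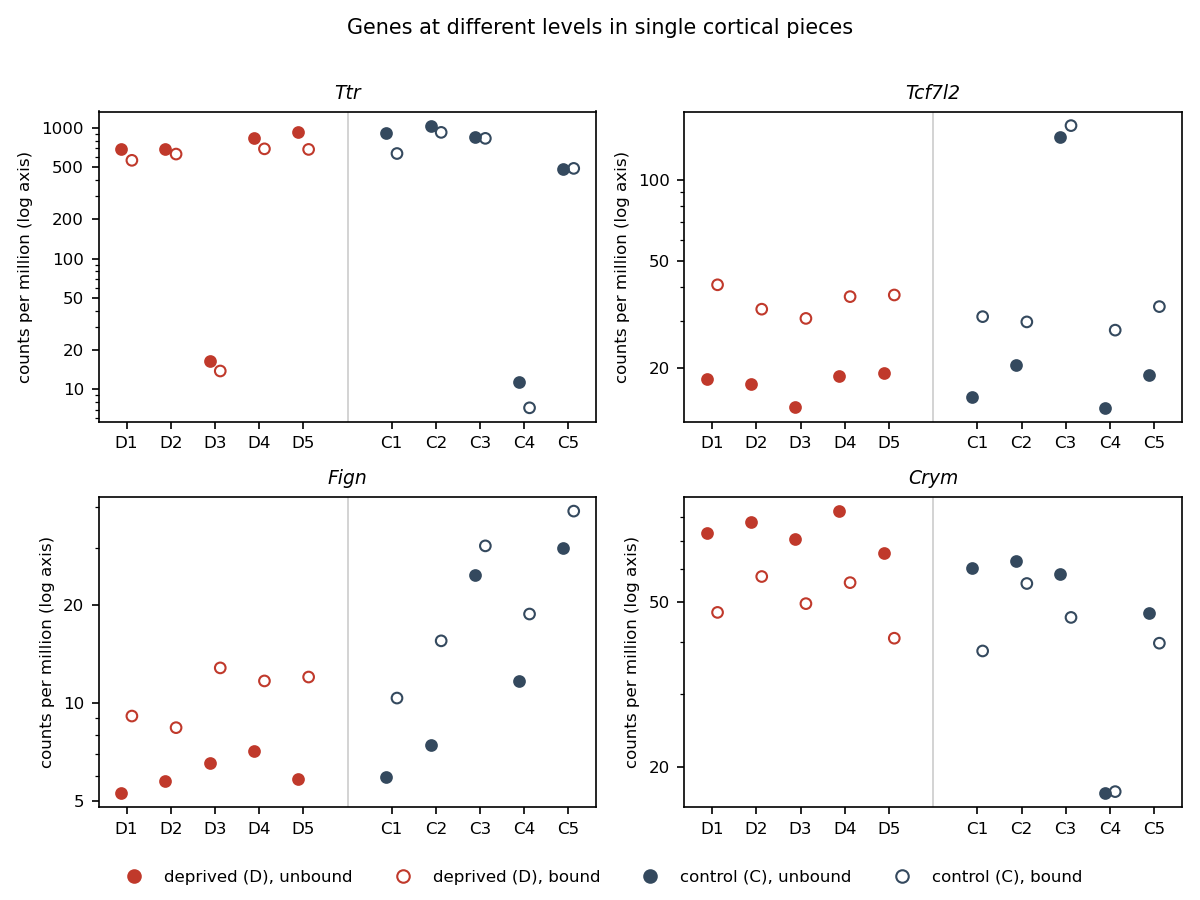
CPM (log axis) of Ttr, Tcf7l2, Fign and Crym in every piece, deprived pieces D1 to D5 left and control pieces C1 to C5 right, with unbound RNA as filled and bound RNA as open circles. Each gene stands apart in single pieces, such as D3 and C4 for Ttr and C3 for Tcf7l2, and does so in both kinds of RNA.

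No gene passed the test between deprived and control unbound RNA 24 h after the lesion. Of 16846 genes tested with edgeR's quasi-likelihood test, 0 had an adjusted p under 0.05 (Benjamini-Hochberg), or 0%, and the smallest adjusted p was 0.584. At an unadjusted p under 0.05 there were 1043 genes (6.19%), of which 399 were higher (2.37%) and 644 lower (3.82%) in deprived libraries. The DESeq2 Wald test and limma-voom also gave 0 calls, with 856 and 1186 genes at an unadjusted p under 0.05. Libraries of the 2 groups did not overlap in 156 genes (0.926%), 83 with all deprived libraries above all controls (0.493%) and 73 below (0.433%). The fold changes had a median of -0.002 on the log2 scale, and 49.1% of them were above 0 and 50.9% below.

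The libraries bounded the size of most differences closely. The 95% interval lay within a 2-fold change in either direction for 16253 of the 16846 genes (96.5%), and within a 1.5-fold change for 13443 (79.8%). The median SE of a log2 fold change was 0.09. For the 3364 genes with a mean log2 CPM of 6 or more it was 0.05, and for the 1059 genes under 0 it was 0.30. When the filter on low counts was dropped, the quasi-likelihood test called 143 genes (54 higher, 89 lower), 132 of which had also passed the filter and 17 of which are among the 20 leading genes described below, while a filter of at least 10 counts over the 10 libraries again gave 0 calls. Without the filter the SE of Fign, described below, was 0.10 in place of 0.34, although its libraries were the same. The cause of that change was not tested, and the calls without the filter are not used here.

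The 10 genes with the smallest p among those higher in deprived libraries had modest differences, and all had an adjusted p of 0.584 with edgeR. Leading genes of both directions were chosen by p, so groups without overlap among them add no further support. Over all genes tested the groups did not overlap in 0.926%. The 10 higher genes include regulators of cortical development. Siah3, a member of the SIAH ubiquitin ligase family (chr14:75455982-75529708, GRCm38), had 53.4, 52.0, 50.1, 54.0 and 56.0 CPM in deprived and 41.2, 43.4, 44.9, 45.0 and 47.3 CPM in control libraries. All 5 deprived libraries lay above all 5 controls, and the log2 fold change was 0.26 ± 0.05 (SE), with a 95% interval of 0.14 to 0.37. Lhx2, a homeobox transcription factor that patterns the cortex (chr2:38339281-38369733), had 138, 155, 150.2, 151 and 148 CPM in deprived and 132, 138, 128, 116 and 119 CPM in control libraries. Its groups touched without crossing, and the fold change was 0.23 ± 0.05. Dab1, the adaptor through which neurons read the layering signal reelin (chr4:103619359-104744844), had 344, 350.0, 349, 356 and 381 CPM in deprived and 311, 322, 306, 317 and 315 CPM in control libraries. Here too the groups did not overlap, with a fold change of 0.18 ± 0.04.

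St18 and Tspan18 had the larger fold changes of the 10, and control library 4 was the lowest library in both. St18, a zinc-finger transcription factor (chr1:6487231-6860940), had 32.5, 39.8, 41.8, 47.0 and 37.9 CPM in deprived and 29.8, 27.8, 28.2, 14.2 and 29.5 CPM in control libraries, a log2 fold change of 0.60 ± 0.14 that was 0.46 without control library 4. Tspan18, a membrane protein of the tetraspanin family, had 73.4, 75.9, 80.6, 82.2 and 91.6 CPM in deprived and 61.6, 66.7, 71.0, 38.4 and 55.9 CPM in control libraries, a fold change of 0.45 ± 0.11 that was 0.34 without it. The groups of both genes did not overlap with or without that library. Nr4a3, an orphan nuclear receptor and immediate early gene (chr4:48045153-48086447), had 209.5, 185, 182, 183 and 184 CPM in deprived and 147, 176, 172, 122 and 139.5 CPM in control libraries. Deprived library 1 was the highest and control library 4 the lowest, and the fold change was 0.32 ± 0.08.

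The remaining genes of these 10 were Cpne4, Msra, Pde1a and Stum. Cpne4, a calcium-dependent membrane-binding protein of the copine family, averaged 181 ± 14.9 CPM in deprived and 145 ± 16.3 CPM in control libraries (SD, n = 5 each), with overlapping groups. Msra, which repairs oxidised methionine, averaged 46.8 ± 2.39 CPM in deprived and 38.8 ± 3.40 CPM in control libraries, and its groups did not overlap. Pde1a, a calmodulin-dependent phosphodiesterase, averaged 243 ± 14.2 CPM in deprived and 202 ± 21.6 CPM in control libraries, again without overlap. Stum averaged 181 ± 6.17 CPM in deprived and 148 ± 20.2 CPM in control libraries, with control library 5 inside the deprived range. Their log2 fold changes were 0.31, 0.27, 0.27 and 0.29.

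Among the 10 genes lower in deprived libraries, Fign alone differed by more than 2-fold on average, and its controls disagreed among themselves. Fign encodes fidgetin, an enzyme that severs microtubules (chr2:63971507-64098038). It had 5.30, 5.797, 6.58, 7.14 and 5.87 CPM in deprived and 5.94, 7.45, 24.7, 11.7 and 29.9 CPM in control libraries. Control libraries 3 and 5 were high, control library 1 lay within the deprived range, and the log2 fold change of -1.41 ± 0.34 (95% interval -2.14 to -0.69, adjusted p = 0.584 with edgeR) was -1.002 without control library 5. The bound libraries of control pieces 3 and 5 were also the highest, at 30.4 and 38.9 CPM against 8.42 to 18.8 CPM in the other 8 pieces.

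The other 9 genes that were lower had fold changes between -0.33 and -0.23. Pcp4, a small regulator of calmodulin (chr16:96467606-96525793, overlapping Igsf5 in the annotation), had 25.6, 25.8, 24.2, 25.9 and 20.7 CPM in deprived and 29.5, 28.9, 29.4, 28.7 and 30.8 CPM in control libraries. Its controls were tight and above every deprived library, for a fold change of -0.26 ± 0.07 and an adjusted p of 0.617 (edgeR). Esrrg, an orphan nuclear receptor related to the oestrogen receptors (chr1:187608791-188214885), had 67.7, 68.8, 71.2, 69.3 and 69.4 CPM in deprived libraries, a spread of 1.27 CPM (SD), and 73.9, 74.0, 81.4, 94.9 and 98.6 CPM in control libraries, a spread of 11.6 CPM. Every control was above every deprived library, and the fold change was -0.29 ± 0.07.

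B3glct, Tmtc1, Ptger3, Ano3, Serpine2 and Kcnh5 were also among the 10. B3glct adds glucose to fucose on secreted proteins, and it averaged 82.5 ± 5.002 CPM in deprived and 102 ± 11.9 CPM in control libraries without overlap of the groups. Serpine2, a secreted inhibitor of serine proteases, averaged 65.4 ± 5.37 CPM in deprived and 77.8 ± 6.25 CPM in control libraries, again without overlap, with control library 4 far above the other controls. Kcnh5, a voltage-gated potassium channel, averaged 23.8 ± 2.08 CPM in deprived and 29.0 ± 2.14 CPM in control libraries, and Ano3, of the anoctamin family and overlapping Muc15, averaged 34.8 ± 2.33 CPM in deprived and 41.9 ± 3.52 CPM in control libraries, both without overlap. Ptger3, a receptor of prostaglandin E2, averaged 30.4 ± 3.49 CPM in deprived and 38.4 ± 3.29 CPM in control libraries, and Tmtc1, which mannosylates proteins in the endoplasmic reticulum, averaged 118 ± 4.84 CPM in deprived and 138 ± 10.99 CPM in control libraries, both with overlap. Of the 20 genes in both directions, none had its fold change moved by over 1.5 times when any 1 library was left out, but control library 4 was the library whose loss moved it most for 10 of the 20.

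**Figure D2:**
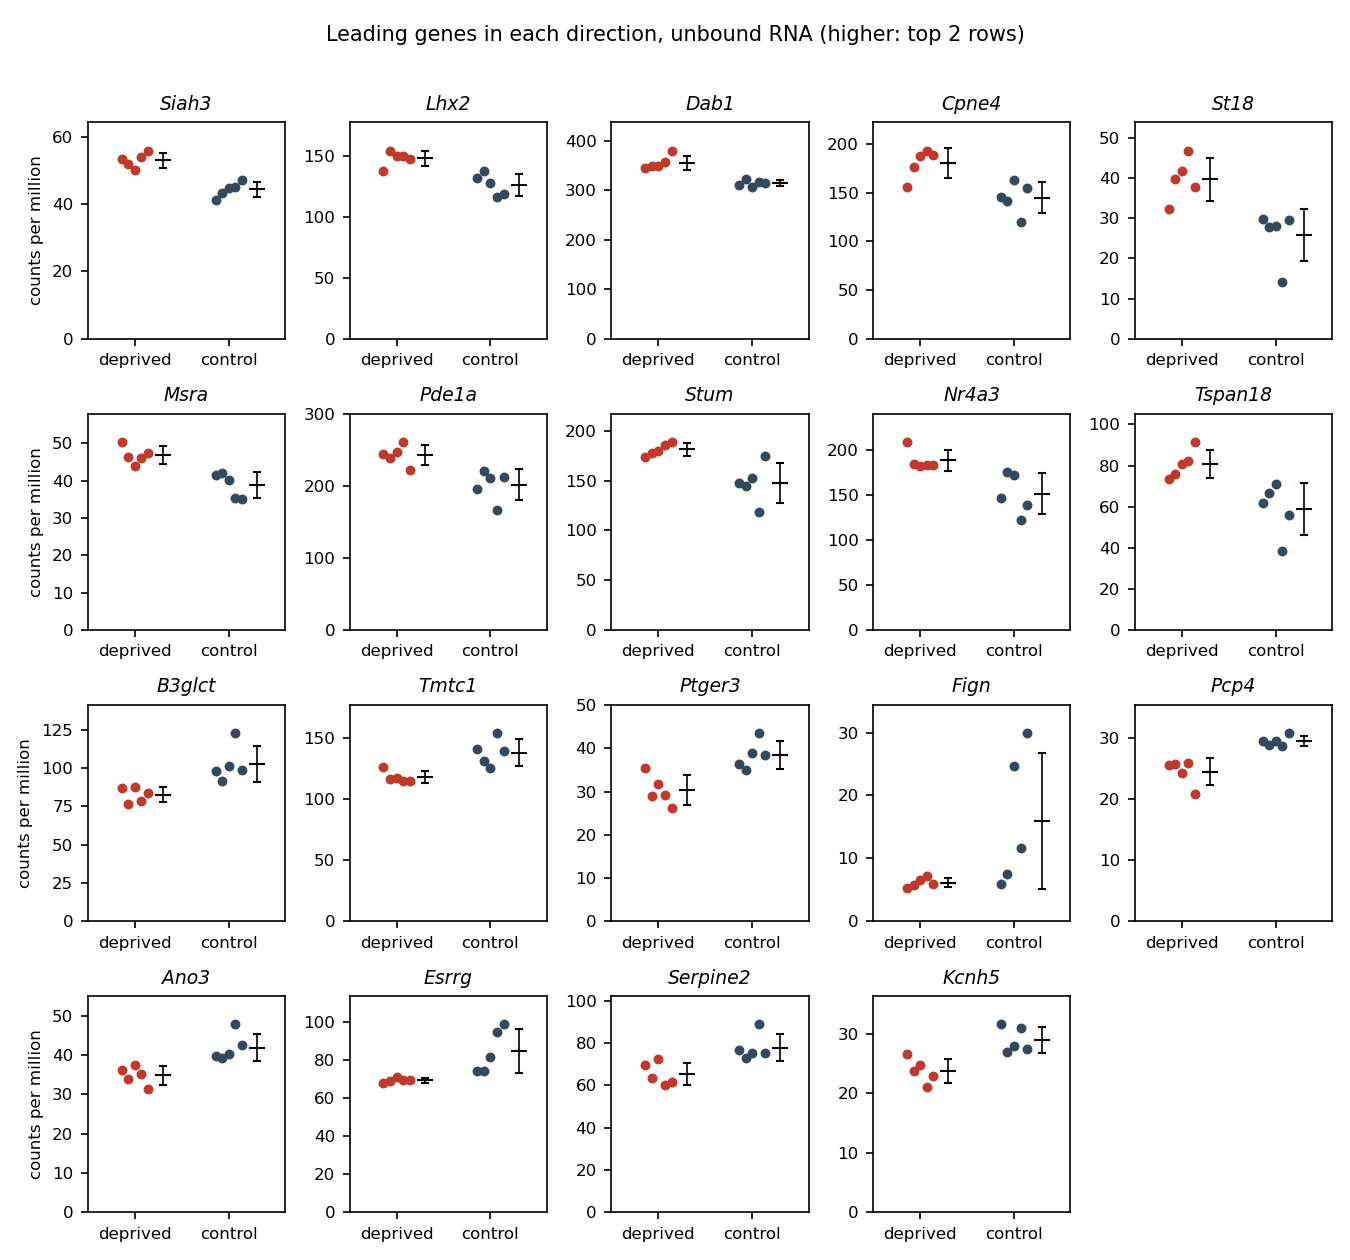
CPM in each unbound library (points, libraries 1 to 5 from left to right) of the 10 higher and 9 of the 10 lower genes with the smallest p, deprived left and control right in each panel, with the mean and SD beside the points. The groups separate fully in panels such as Siah3, Dab1 and Pcp4, while control libraries 3 and 5 set the wide control spread of Fign. The genes were chosen by p, so their separation adds no further support.

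Immediate early genes gave no common answer to the lesion at 24 h. None of the 19 tested was called, 12 were above 0 and 7 below, and the median log2 fold change was 0.06, against -0.002 for all genes. At an unadjusted p under 0.05 there were 3 of the 19, all higher, against 2.37% of all genes. Fos, the classic marker of recent neuronal firing, had 2.96, 2.46, 2.61, 2.77 and 2.202 CPM in deprived and 1.93, 2.72, 3.59, 2.96 and 2.65 CPM in control libraries, at most 72 counts in a library. The groups overlapped fully and the fold change was -0.04 ± 0.17, with a 95% interval of -0.40 to 0.32. Egr1, a zinc-finger transcription factor that is expressed at a higher level per length, had 56.5, 61.6, 56.9, 67.9 and 69.7 CPM in deprived and 54.4, 62.9, 61.5, 68.5 and 72.0 CPM in control libraries, with an interval of -0.19 to 0.13.

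Arc and Npas4 averaged lower and the nuclear receptor genes Nr4a2 and Nr4a3 higher. Arc, which acts at synapses in receptor uptake, had 3.12, 4.10, 3.80, 5.05 and 4.04 CPM in deprived and 3.89, 4.13, 4.04, 5.84 and 5.54 CPM in control libraries. Its log2 fold change was -0.24 ± 0.16. It was -0.14 without deprived library 1, -0.15 without control library 5 and -0.34 without deprived library 4. Npas4, a neuronal transcription factor that is induced by calcium entry, averaged 3.85 ± 0.965 CPM in deprived and 4.44 ± 1.44 CPM in control libraries, a fold change of -0.22 ± 0.20 that lay between -0.34 and -0.11 when single libraries were left out. Both intervals included 0. Nr4a2 had 130.3, 162, 183, 163 and 170.0 CPM in deprived and 131, 129, 141, 115 and 145 CPM in control libraries, so that deprived library 1 fell among the controls and the other 4 lay above them. Its fold change was 0.29 ± 0.08 (adjusted p = 0.634, edgeR), and that of Nr4a1, another member of the family, was -0.04 ± 0.15.

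Summed over the list, immediate early genes reached 132, 138, 139, 144 and 144 CPM per kb in deprived and 116, 128, 128, 118 and 131 CPM per kb in control libraries. The sums only just missed overlapping, at 131.8 in the lowest deprived and 131.3 in the highest control library. Nr4a2 and Nr4a3 weigh most in them, at a mean level of 36.2 and 28.4 CPM per kb, while Fos, Arc and Npas4 each stood at 1.00 to 1.42. Among late activity-regulated genes 10 of 15 were above 0, with a median of 0.01. Bdnf, the neurotrophin that is induced by activity, had 10.7, 9.58, 9.19, 8.25 and 8.90 CPM in deprived and 7.62, 8.05, 10.6, 3.40 and 6.64 CPM in control libraries (fold change 0.36 ± 0.18, interval -0.01 to 0.74, 0.21 without control library 4), and it overlaps a predicted gene. Nptx2, a pentraxin that clusters glutamate receptors, averaged 1.83 ± 0.263 CPM in deprived and 2.50 ± 0.671 CPM in control libraries, a fold change of -0.42 ± 0.20. Dusp4, a phosphatase of the MAP kinase pathway, averaged 11.5 ± 1.66 CPM in deprived and 8.48 ± 2.18 CPM in control libraries, a fold change of 0.42 ± 0.14 that was 0.30 without control library 4. Rgs2, a regulator of G proteins, and Scg2, a granin of secretory vesicles, had fold changes of -0.22 ± 0.07 and -0.20 ± 0.07.

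**Figure D3:**
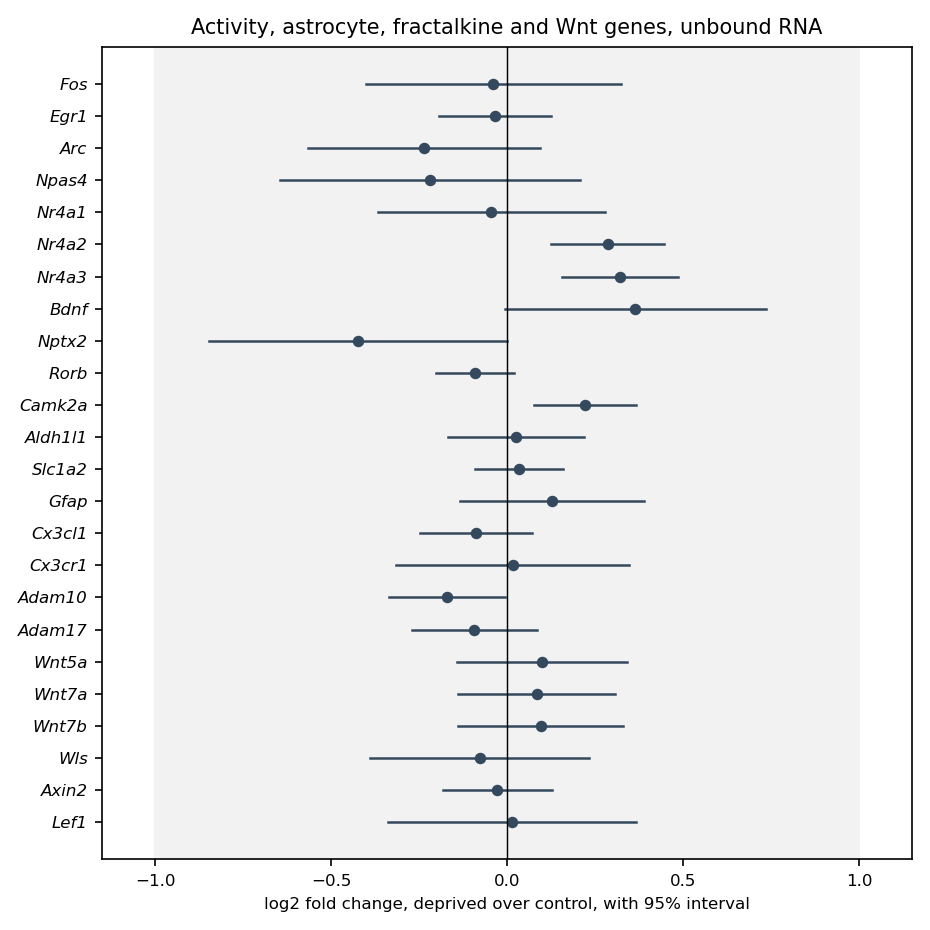
Log2 fold change (deprived over control, unbound RNA) with its 95% interval for 24 genes of neuronal activity, astrocytes, the fractalkine pathway and the Wnt pathway. The shaded range is a 2-fold change in either direction; every interval lies inside it, those of Nr4a2, Nr4a3 and Camk2a lie above 0, and that of Adam10 lies just below it.

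Genes of layer 4, the target of the thalamic axons, had no common direction and none was called. Rorb, a nuclear receptor of layer 4 neurons, had 588, 625, 632, 569.5 and 615 CPM in deprived and 662, 614, 629.8, 727 and 594 CPM in control libraries. The groups overlapped and the fold change was -0.09 ± 0.05, with an interval of -0.20 to 0.02, or -0.05 without control library 4. Of 12 genes of layer 4 or of thalamic input, 7 were above 0 and 5 below, with a median of 0.04. At an unadjusted p under 0.05, 3 of the 12 were higher and 2 lower, against 2.37% and 3.82% of all genes. Lhx2 and Kcnh5, both described above, were the members with the smallest p, in opposite directions.

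Upper-layer genes averaged lower in 9 of 10 cases, with a median of -0.08, and none was called. Without control library 4, whose sum over the list was the highest, the median was -0.05, with 7 of 10 below 0. Cux1, a transcription factor of upper-layer neurons, had a fold change of -0.11 ± 0.05. Of 11 deep-layer genes tested, 4 were above 0 and 7 below. Crym, as given above, had the largest fold change of these, 0.59 ± 0.20, which was 0.38 ± 0.08 without control library 4 and left the groups without overlap. Foxp2, a transcription factor of layer 6 neurons, had 123, 146, 145, 144 and 156 CPM in deprived and 143, 148, 169, 187 and 187 CPM in control libraries, with controls 4 and 5 the highest and a fold change of -0.23 ± 0.08. Bcl11b, of layer 5, stood at -0.03 ± 0.06.

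Genes of neighbouring structures differed in direction by structure. All 12 striatal neuron markers tested were below 0, with a median of -0.25 and 5 at an unadjusted p under 0.05, all lower, against 3.82% of all genes, but none was called. Their summed level was 80.7, 82.9, 78.1, 91.7 and 87.7 CPM per kb in deprived and 83.7, 87.2, 88.6, 117 and 119 CPM per kb in control libraries. Controls 4 and 5 were the highest, while controls 1 to 3 lay within the deprived range. Tac1, the precursor of substance P, had 18.5, 19.1, 19.1, 24.6 and 20.0002 CPM in deprived and 24.1, 20.1, 22.3, 31.5 and 30.2 CPM in control libraries (fold change -0.35 ± 0.11). Ppp1r1b, the dopamine signalling protein DARPP-32, had a fold change of -0.20 ± 0.12. It was -0.12 without deprived library 3 and -0.29 without deprived library 5. The list's median was -0.18 without control library 4, and -0.14 with 2 of 12 above 0 when deprived library 3 was left out as well. The contribution of striatal tissue to single pieces was not tested.

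Hippocampal and thalamic markers averaged in opposite directions. All 7 hippocampal markers tested, of 10 in the list, were above 0, with a median of 0.36 that became 0.21 without control library 4. Prox1, a transcription factor of dentate granule cells that interneurons also use and that overlaps Prox1os, had 127, 139, 142, 142 and 125 CPM in deprived and 107, 113, 167, 46.3 and 84.4 CPM in control libraries, where control 4 was lowest and control 3 highest. Summed over the list, controls 1, 2, 4 and 5 lay at 27.6 to 34.8 CPM per kb, below every deprived library (37.9 to 42.2), and control 3 at 41.8 within the deprived range. Thalamic markers had 2 of 10 above 0 and a median of -0.10. That median was 0.01 without control library 3, -0.27 without control library 4 and -0.06 without both. Slc17a6, the vesicular glutamate transporter of thalamic axons' neurons, had a fold change of -0.24 ± 0.14, which was -0.04 without control library 3, the highest at 107.7 CPM.

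Lists of neuronal identity and maturity genes had medians close to 0, and no member was called. Genes of immature neurons had 7 of 10 above 0 (median 0.04) and genes of mature neurons 4 of 10 (median -0.01). Among 13 pan-neuronal markers 11 were above 0, with a median of 0.02. At an unadjusted p under 0.05 there were 3 of the 13, all higher, against 2.37% of all genes. Snap25 and Stmn2 had fold changes of 0.003 ± 0.05 and 0.02 ± 0.05. Camk2a, the main kinase of excitatory synapses, had 388, 428, 458, 469.6 and 458 CPM in deprived and 386, 405, 369, 311 and 416 CPM in control libraries, with a fold change of 0.22 ± 0.07 (adjusted p = 0.678, edgeR), and deprived library 1 lay among the controls. Interneuron genes had 4 of 15 above 0 and a median of -0.09, with 3 at an unadjusted p under 0.05, all lower, against 3.82% of all genes. Slc32a1, the vesicular transporter of GABA, stood at -0.35 ± 0.12, or -0.18 without control library 5. Npy stood at -0.22 ± 0.09, or -0.15 without control library 4, and Sst at -0.02 ± 0.10. The last 2 genes encode the interneuron peptides neuropeptide Y and somatostatin.

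Lists of synaptic protein genes had small median fold changes. Release genes had 11 of 16 above 0 (median 0.02) and postsynaptic scaffold genes 12 of 18 (median 0.02). At an unadjusted p under 0.05 there were 1 and 0 of them. Glutamate receptor subunits had 4 of 15 above 0, with a median of -0.08. Of these 15, 3 had an unadjusted p under 0.05, all lower, against 3.82% of all genes. Grin2b and Grin2a, the NMDA receptor subunits of young and of mature synapses, had fold changes of -0.08 ± 0.07 and 0.002 ± 0.06. Grm3, a metabotropic receptor, had 128, 119.6, 124, 117 and 128 CPM in deprived and 141, 125, 129.8, 176 and 151 CPM in control libraries, with control 4 the highest and a fold change of -0.23 ± 0.07 that was -0.15 without it. GABA-A receptor subunits had 2 of 12 above 0 and a median of -0.10, with -0.19 ± 0.07 for Gabra3. Here 2 of the 12 had an unadjusted p under 0.05, both lower. No subunit of either kind was called.

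**Figure D4:**
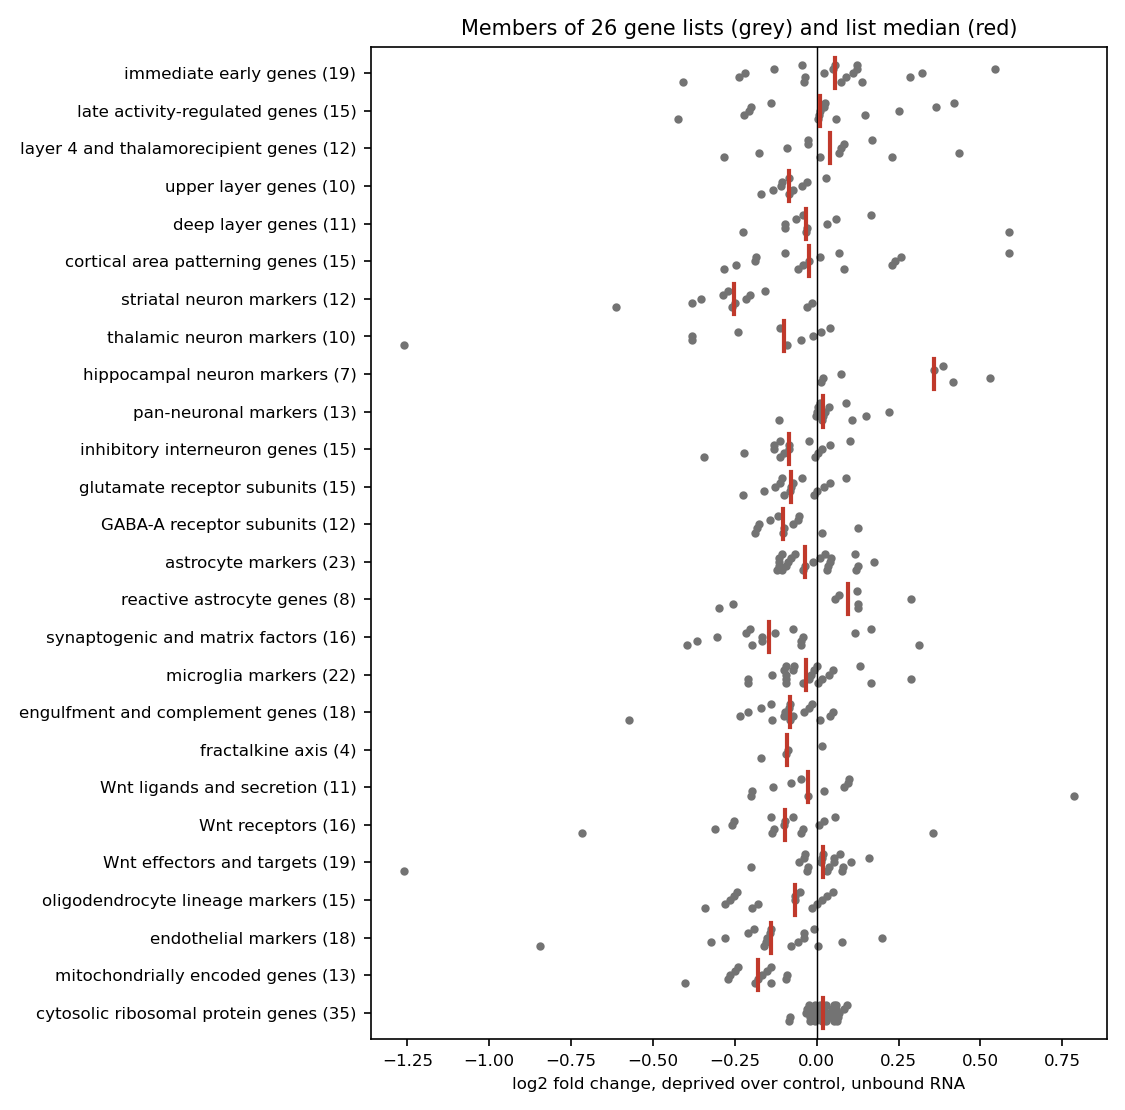
Log2 fold change (deprived over control) of every tested member (grey points, number in brackets) of 26 gene lists in unbound RNA, with the list's median in red. All striatal and all mitochondrially encoded members lie below 0, all hippocampal ones above, and the ribosomal protein genes within 0.1 of 0.

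Among secreted synapse-organising and matrix factors, 13 of 16 were below 0, with a median of -0.15. Of the 16, 6 had an unadjusted p under 0.05, all lower, against 3.82% of all genes, and none was called. Vcan, which encodes the proteoglycan versican, had 351, 345, 389, 313 and 343 CPM in deprived and 416, 367, 397, 457 and 385 CPM in control libraries, a fold change of -0.22 ± 0.06 with an adjusted p of 0.676 (edgeR). Deprived library 3 was the only one above a control. Gpc5, a membrane-bound proteoglycan that overlaps a predicted gene, had a fold change of -0.37 ± 0.10, and Ncan (neurocan), the most abundant of the list per length, -0.05 ± 0.05. The median was -0.13 without control library 4, which held the highest Vcan value.

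Axon guidance genes held both directions, with 10 of 25 above 0. At an unadjusted p under 0.05, 3 of the 25 were higher and 4 lower, against 2.37% and 3.82% of all genes, and none was called. Nrp1, the receptor of class 3 semaphorins (overlapping Mir1903), had 46.1, 42.8, 47.9, 48.0 and 49.8 CPM in deprived and 38.8, 39.7, 38.0, 19.4 and 34.5 CPM in control libraries. All deprived libraries lay above all controls, with control 4 far below the rest, and the fold change was 0.45 ± 0.12 (adjusted p = 0.676, edgeR). Ntn1, the guidance cue netrin-1, had 8.33, 9.64, 8.17, 9.48 and 9.54 CPM in deprived and 10.9, 11.5, 9.66, 15.2 and 11.6 CPM in control libraries, all deprived libraries being lower, with a fold change of -0.38 ± 0.11. Of 18 ephrins and Eph receptors 6 were above 0. The receptors Epha8 and Ephb6 had fold changes of -0.39 ± 0.12 and -0.33 ± 0.10, and the ligand Efna5 -0.25 ± 0.08.

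Astrocyte transcripts left in the unbound RNA did not separate the groups. Of 23 astrocyte markers, 10 were above 0 and 13 below, with a median of -0.04, fold changes up to 0.17 and down to -0.12, and every 95% interval inside a 2-fold change. Aldh1l1, which overlaps 2 predicted genes, had 11.9, 10.8, 13.7, 14.2 and 11.1 CPM in deprived and 13.2, 11.8, 12.7, 12.1 and 11.1 CPM in control libraries, a fold change of 0.03 ± 0.09. Slc1a2, the main glutamate transporter, averaged 771 ± 74.4 CPM in deprived and 754 ± 41.7 CPM in control libraries, a fold change of 0.03 ± 0.06 with an interval of -0.09 to 0.16. Gfap, the filament protein that reactive astrocytes raise, had 22.6, 29.2, 31.4, 29.9 and 27.3 CPM in deprived and 28.6, 30.8, 28.4, 16.5 and 23.8 CPM in control libraries, a fold change of 0.13 ± 0.12 that was 0.02 without control library 4. Reactive astrocyte genes had 6 of 8 above 0 and a median of 0.10, which was 0.02 without control library 4; Cd44, a receptor of hyaluronan, went the other way at -0.30 ± 0.09.

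Microglial transcripts were scarce. Of 22 microglial markers tested, 8 were above 0 and 14 below, with a median of -0.03 and 0 at an unadjusted p under 0.05, against 6.19% of all genes. Without deprived library 3 and control library 4 the median was -0.12, with 18 of 22 below 0 and 2 at an unadjusted p under 0.05, and under limma-voom it was -0.08, also with 18 below. Cx3cr1, the fractalkine receptor, had 4.27, 5.36, 8.34, 6.10 and 5.23 CPM in deprived and 6.52, 6.04, 4.87, 4.96 and 6.15 CPM in control libraries, a fold change of 0.02 ± 0.16 with an interval of -0.32 to 0.35. P2ry12, a nucleotide receptor of resting microglia, stood at -0.14 ± 0.12. C1qa, a subunit of the complement component C1q, and C3 were below the filter, with at most 6 and 24 counts in a library, and were not tested. C1qb, another subunit of C1q, was among the 22 markers tested, at -0.21. Its fold change lay between -0.36 and -0.08 when single libraries were left out.

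The ligand side of the fractalkine pathway was measured more precisely. Cx3cl1, the neuronal ligand, had 24.1, 21.4, 26.9, 25.4 and 28.6 CPM in deprived and 26.5, 25.6, 27.1, 24.9 and 29.2 CPM in control libraries, with a fold change of -0.09 ± 0.08 and an interval of -0.25 to 0.07. Adam10, the protease that releases it, had 72.0, 62.4, 78.6, 59.8 and 60.0 CPM in deprived and 76.6, 72.5, 70.2, 87.4 and 69.3 CPM in control libraries, a fold change of -0.17 ± 0.08 with an interval of -0.34 to -0.005 and an adjusted p of 0.795 (edgeR). Deprived library 3 and control library 4 were each the highest of their group. The fold change was -0.24 without deprived library 3 and -0.11 without control library 4. Adam17, another protease of the same kind, stood at -0.09 ± 0.08. Engulfment and complement genes had 3 of 18 above 0, a median of -0.08 and 2 members at an unadjusted p under 0.05, both lower, against 3.82% of all genes. Cd47, the signal on neurons that holds phagocytes off, had 417, 406, 458, 396 and 418 CPM in deprived and 469.8, 426, 449, 531 and 480.0 CPM in control libraries, a fold change of -0.17 ± 0.06, and Gulp1, an adaptor of engulfment receptors, -0.23 ± 0.09.

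Wnt ligands were expressed at low levels, and only 11 of 21 genes for ligands and their secretion passed the filter. Of these 5 were above 0 and 6 below, and none was called. At an unadjusted p under 0.05, 1 was higher and 1 lower, against 2.37% and 3.82% of all genes. The fold changes ran from -0.20 to 0.78. For 10 of the 11 the interval lay within a 2-fold change, and the widest reach upwards was 1.53. Wnt7a had 5.87, 7.81, 7.49, 7.08 and 6.88 CPM in deprived and 6.68, 6.24, 5.84, 6.62 and 7.33 CPM in control libraries, a fold change of 0.08 ± 0.11. Wnt7b and Wnt5a, each overlapping another annotated gene, had fold changes of 0.10 ± 0.11 and 0.10 ± 0.11, and Wls, which carries Wnt proteins to the cell surface, -0.08 ± 0.15. The intervals of these 4 genes, which belong to the fixed set of named genes, lay within a 2-fold change and included 0.

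Of 16 Wnt receptor genes 4 were above 0, with a median of -0.10. Fzd9, a Frizzled receptor, had 1.03, 1.13, 0.851, 1.66 and 1.19 CPM in deprived and 2.13, 2.21, 2.10, 1.48 and 1.67 CPM in control libraries, a fold change of -0.72 ± 0.21 with an adjusted p of 0.676 (edgeR), and deprived library 4 lay among the controls. Of 19 effectors and targets 12 were above 0, with a median of 0.02. Axin2, a feedback inhibitor that rises with Wnt signalling and overlaps a predicted gene, had 14.1, 13.9, 13.8, 14.7 and 16.4 CPM in deprived and 13.7, 15.6, 15.3, 14.6 and 14.9 CPM in control libraries. Its fold change of -0.03 ± 0.07 had an interval of -0.18 to 0.13, and that of the transcription factor Lef1 was 0.01 ± 0.17.

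Vascular and oligodendrocyte lineage transcripts averaged lower without any call. Endothelial markers had 3 of 18 above 0 and a median of -0.14, -0.11 in bound RNA of the same pieces and 0.06 in unbound RNA of the knockout line. Slc2a1, the glucose transporter of the blood-brain barrier, had 8.58, 9.52, 10.5, 8.81 and 8.90 CPM in deprived and 10.5, 9.56, 13.6, 12.6 and 11.6 CPM in control libraries, a fold change of -0.32 ± 0.10. Oligodendrocyte lineage markers had 3 of 15 above 0 and a median of -0.06. Gpr17 and Pdgfra, of oligodendrocyte precursors, stood at -0.27 ± 0.09 and -0.18 ± 0.08. Mural cell and fibroblast markers had 9 of 14 above 0 (median 0.06).

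All 13 mitochondrially encoded mRNAs were below 0, with a median of -0.18, none of them at an unadjusted p under 0.05. mt-Nd3, a subunit of complex I, had 7.80, 8.95, 12.6, 5.54 and 7.43 CPM in deprived and 12.0, 11.6, 11.01, 15.4 and 7.25 CPM in control libraries, a fold change of -0.40 ± 0.19. The 13 genes lie on 1 molecule, and their median was -0.10 without control library 4 and 0.19 in bound RNA of the same pieces. Without both deprived library 3 and control library 4 it was -0.33, with 7 of the 13 at an unadjusted p under 0.05, and under limma-voom with sample weights -0.27, with 3. Genes of the respiratory chain in the nucleus had 6 of 20 above 0 and a median of -0.01. Cycs (cytochrome c) had 49.5, 47.8, 48.3, 50.5 and 47.7 CPM in deprived and 55.7, 53.1, 54.7, 53.9 and 51.4 CPM in control libraries, without overlap, and a fold change of -0.14 ± 0.05. The 35 cytosolic ribosomal protein genes tested all lay within 0.1 of 0 (median 0.02).

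Genes of inflammation, cell death and stress gave no call. Only 3 of 14 inflammatory cytokine genes passed the filter, all 3 between -0.13 and -0.03. Interferon response genes had 5 of 9 above 0 (median 0.05). Apoptosis regulators had 11 of 15 above 0 (median 0.06), all 15 intervals lay within a 2-fold change, and 2 were higher at an unadjusted p under 0.05, against 2.37% of all genes, among them Hrk, which promotes cell death in neurons, at 0.29 ± 0.09, and the tumour suppressor Trp53 at 0.15 ± 0.06, both with an adjusted p of 0.678 or more (edgeR). Heat shock and stress genes had 10 of 14 above 0 (median 0.01), and cell cycle genes 14 of 19 (median 0.06).

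The effect of deprivation was next set against that in the astrocyte-bound RNA of the same pieces. In a fit of all 4 groups, 0 of 18324 genes (0%) differed in their response between unbound and bound RNA at an adjusted p under 0.05 (edgeR), with 546 (2.98%) at an unadjusted p under 0.05. DESeq2 and limma-voom also gave 0 calls, with 526 and 685 genes at an unadjusted p under 0.05. Both kinds of RNA came from the same pieces, and with the piece as a replicate block 1 gene was called: Srp54b, a subunit of the signal recognition particle with near-identical copies in the genome, at -4.51 ± 0.63 (unbound minus bound, adjusted p = 0.0022, edgeR). In unbound RNA Srp54b had 0.575, 0.882, 0.567, 0.493 and 0.826 CPM in deprived and 5.000, 0.704, 0.599, 2.96 and 10.8 CPM in control libraries, with controls 1, 4 and 5 high. It lies outside the rule for named genes and was chosen after its values were seen. Bound RNA by itself gave 0 calls of 17685 genes, with 1067 (6.03%) at an unadjusted p under 0.05. The 10 genes that led upwards in unbound RNA had a median log2 fold change of 0.28 there and 0.27 in bound RNA, and the 10 that led downwards -0.28 and -0.21. The pieces are shared, so the 2 sets of values are not independent. Gfap stood at 0.13 ± 0.12 in unbound and 0.28 ± 0.10 in bound RNA, a difference of -0.15 ± 0.18. Ipo5, a nuclear import receptor and one of the genes with the smallest p for the difference, stood at 0.03 ± 0.04 in unbound and -0.25 ± 0.08 in bound RNA, a difference of 0.28 ± 0.09. The differences of Gfap and Ipo5 and their SE come from the fit without the block, which takes no account of the shared pieces. With the block 818 genes had an unadjusted p under 0.05 (edgeR), in place of 546.

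Unbound RNA of the knockout line comes from other mice and shares no library with the astrocyte line. No gene of 19367 (0%) differed in its response between the 2 lines at an adjusted p under 0.05 (edgeR), with 861 (4.45%) at an unadjusted p under 0.05. DESeq2 called 1, Srp54b, with 781 genes at an unadjusted p under 0.05, and limma-voom 0, with 865. Without control library 3 of the astrocyte line edgeR called 2 genes, Tcf7l2 and Synpo2, with differences (astrocyte minus knockout line) of 2.898 ± 0.44 and 0.95 ± 0.16. By itself the knockout line gave 7 calls of 18421 genes (0.038%), all lower in deprived libraries, which included Tcf7l2 and Fign. The pieces are paired by mouse, and with the mouse as a replicate block 3 genes were called, Tcf7l2 among them. Fign had 2.09, 3.02, 3.87, 3.35 and 2.78 CPM in the deprived and 19.995, 15.9, 15.9, 7.30 and 4.17 CPM in the control pieces of mice 7, 12, 18, 19 and 22, a fold change of -2.08 ± 0.33 (adjusted p = 0.0475, edgeR). Every mouse had the lower value on the deprived side, but with the block the adjusted p was 0.0585 (-1.93 ± 0.28). Tcf7l2 had 10.5, 12.4, 11.5, 13.5 and 10.99 CPM in the deprived and 89.7, 149, 94.2, 83.1 and 18.7 CPM in the control pieces, a fold change of -2.89 ± 0.36 (adjusted p = 0.0180, edgeR). In the knockout line 4 of 5 control pieces were thus high, in the astrocyte line control library 3 alone, at 143.6 CPM.

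The leading genes of the astrocyte line's unbound RNA were looked up in the knockout line. Of the 10 that were higher, 6 were above 0 there, with a median of 0.07 and 2 at an unadjusted p under 0.05, against 4.74% of all genes in that comparison. Of the 10 that were lower, 8 were below 0 there, with a median of -0.11 and 2 at an unadjusted p under 0.05. With the mouse as a block 2 of the higher and 5 of the lower genes had an unadjusted p under 0.05 in the same direction. Over all genes the share in that fit was 7.01%, again for both directions together. None of the 20 reached that threshold in the opposite direction in either fit. Lhx2 had 125, 129, 140.3, 122 and 129.8 CPM in deprived and 104, 119, 116, 110.1 and 115 CPM in control pieces of the 5 knockout mice, higher on the deprived side in each. Its fold change was 0.20 ± 0.05 (adjusted p = 0.716, or 0.301 with the mouse as a block, edgeR). Dab1 had 281, 278, 302, 293 and 288 CPM in deprived and 242, 259, 246, 264 and 276 CPM in control pieces, again higher in each mouse. Its fold change was 0.16 ± 0.05 (adjusted p = 0.926, or 0.463 with the mouse as a block, edgeR).

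Striatal markers had a median below 0 in both lines. It was -0.25 in the astrocyte and -0.41 in the knockout line. Thalamic markers had medians of -0.10 and -0.94. Other lists changed sign: hippocampal markers had a median of 0.36 in the astrocyte and -0.22 in the knockout line, and upper-layer genes -0.08 and 0.12. Immediate early genes had medians of 0.06 and -0.05. Nr4a3 stood at 0.32 ± 0.08 in the astrocyte line and 0.09 ± 0.15 in the knockout line, a difference of 0.23 ± 0.19 that did not pass. With the mouse as a block, the knockout line had -0.34 ± 0.14 for Fos, -0.19 ± 0.07 for Egr1 and -0.35 ± 0.15 for Arc. In that fit Nr4a2 stood at -0.07 ± 0.07 and Nr4a3 at 0.05 ± 0.09, and none of these genes was called. Synpo2, an actin-binding protein called in the knockout line without the block (adjusted p = 0.0585 with it, edgeR), stood at 0.02 ± 0.13 in the astrocyte and -0.79 ± 0.12 in the knockout line, a difference of 0.81 ± 0.18 with an adjusted p of 1.00 (edgeR). Genotype, tamoxifen, the tagged cell type and the RNA type given in the labels all differ between the lines and cannot be told apart.

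**Figure D5:**
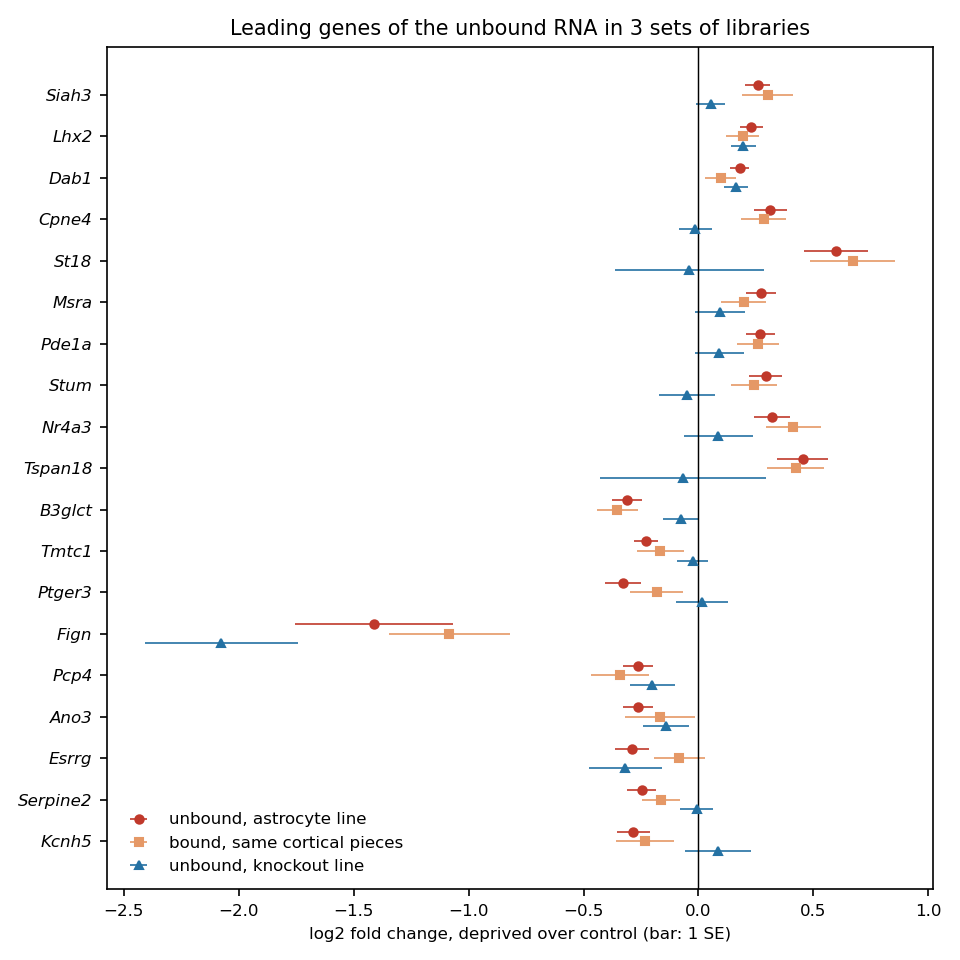
Log2 fold change (deprived over control, bar 1 SE) of the 10 higher and 9 of the 10 lower leading genes in unbound RNA of the astrocyte line, in bound RNA of the same pieces and in unbound RNA of the knockout line. Lhx2, Dab1 and Fign lie on the same side of 0 in all 3 sets. In a fit of the knockout line with the mouse as a block, not drawn here, St18 stood at -0.24 ± 0.28 and Tspan18 at -0.25 ± 0.30.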

How the data were processed

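The authors deposited raw counts per Ensembl gene, whole numbers in 1 table per line, and this unit was used unchanged. Per the submitters' processing notes, featureCounts 2.0.0, HISAT2 2.2.0, Trim Galore 0.6.4, FastQC 0.11.9 and cutadapt 2.9 were named, with the builds GRCm38 and mm10; the strand setting of the counting is not given in the sources used here, so genes that overlap another are uncertain. Per the labels, cDNA was amplified with Ovation V2 and libraries were made with Nextera XT. A gene's position, exon length and overlaps come from GENCODE (GRCm38), which matched 47788 of 47971 gene IDs.

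Deprived and control libraries were compared with edgeR 4.0.16 (R 4.3.3) by its quasi-likelihood F test on the deposited counts, with TMM normalisation, the filterByExpr filter and Benjamini-Hochberg adjustment over all genes tested, at a threshold of 0.05; the differences of effects are interaction terms over 4 groups of 5 libraries. Intervals are 95%. CPM use TMM library sizes, and log2 CPM a prior count of 2. Alternatives used DESeq2 1.42.0 and limma 3.58.1. The fits were tested on simulated counts with known changes.

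The genes named are the 10 per direction with the smallest p among genes averaging a log2 CPM of 3 or more, predicted genes left out; of each of 43 gene lists (678 symbols) the tested members with the smallest p or the highest level; and a fixed set. The members and lists were chosen with earlier results of these data known. No 2 libraries agreed within sampling noise (lowest chi-square per degree of freedom 3.81), and 9 of 10 unbound libraries correlated best with the bound library of their own piece. Libraries of the heterozygous microglial line were not used here. Some named genes, 1 of the 10 leading lower ones among them, are not reported here.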

Additional observations from a re-analysis of the deposited data

Results flagged for a closer look

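In 184 groups of 5 libraries (88 genes of the text and 4 library measures, each in deprived and in control libraries), a single library was set far apart from the nearest of the others in 15. Chance gives about 1 in 20 groups, and no explanation was tested. The genes of the text were partly chosen by their p-values, so the 15 cannot be read against that share. Over all tested genes, control library 4 was set apart in 2.08%, and the other libraries in 0.6% to 1.77% each.

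In deprived libraries, Ttr was far lower in library 3 (16.3 CPM against 689 CPM in the nearest), Tac1 was higher in library 4 (24.6 against 20.0002 CPM), and Bcl11b was higher in library 4 as well (376 against 347 CPM). Deprived library 1 was highest for Nr4a3 (209.5 against 185 CPM) and for Tmtc1 (126 against 117 CPM).

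Control library 4 stood apart most often. It was the highest control for Fam177a2, one of a group of near-identical genes (12.98 against 2.85 CPM), for Serpine2 (88.8 against 76.8 CPM) and for Ephb6 (22.4 against 17.3 CPM). It was the lowest for Nrp1 (19.4 against 34.5 CPM), for St18 (14.2 against 27.8 CPM) and in its median correlation with the other libraries (0.985 against 0.990). Control library 3 was the highest for Tcf7l2 (143.6 against 20.5 CPM) and Slc17a6 (107.7 against 68.4 CPM), both abundant in thalamic neurons. Slc32a1 was highest in control library 5 (19.5 against 13.9 CPM), and Snap25 lowest in control library 1 (1842 against 2033 CPM).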

How the results depend on the processing

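The count of 0 genes for deprived against control unbound RNA held under DESeq2 size factors, the DESeq2 Wald test, limma-voom, sex as a term, all 4 groups in the fit, female libraries only, the loss of control libraries 3 and 4, and each library left out in turn (0 in each of 10 fits, with 767 to 1527 genes at an unadjusted p under 0.05). It also held under 3 settings chosen after seeing the data: without deprived library 3 and control library 4, with a filter of 10 counts, and with the newer edgeR estimate. It did not hold without the filter, with 143 calls, or 101 with the newer estimate (also chosen after seeing the data); the cause was not tested. The difference from bound RNA gave 15 calls without the filter and 1 with the piece as a replicate block, and 0 in every fit that left out a library. The difference from the knockout line gave 1 without the filter and 1 with DESeq2, each Srp54b, and 0 to 2 when a library was left out. The knockout line by itself gave 3 calls with the mouse as a replicate block, chosen after seeing the data, in place of 7.

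Replicate numbers of deprived and control libraries were not taken as pairs: the labels name no animal, and deviations of same-numbered libraries, which also share the labelled sex, correlated at -0.06 to 0.14, above 0.1 in 3 of 5 pairs (numbers 1, 2 and 5). The replicate block gave 0 calls, with 1285 genes at an unadjusted p under 0.05, and 0 calls for the difference from the knockout line. Over named genes and settings, 4503 fold changes in unbound RNA stayed uncalled and within 1 SE of the value given, 120 stayed uncalled and moved by more, 64 passed the threshold (all without the filter), and no called value changed sign. With 10 libraries, and wide intervals for genes at few counts, small changes of scarce transcripts cannot be seen.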
